A study of Mus musculus with 10 samples.

Results

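The response of wild type mouse neutrophils to fMLP was followed on 5 arrays, chosen by their labels from the 10 of the series: 3 of unstimulated wild type cells (replicates 1 to 3) and 2 of wild type cells after fMLP. fMLP is a formylated peptide of the kind bacteria release, and the stimulated cells were kept with 10 micromolar of it at 37 degrees for 20 minutes. All cells came from the marrow of tibia and femur of female C57BL/6 mice 10 weeks old, and neutrophils were enriched by Percoll density gradient after lysis of red cells. The other 5 arrays are of cells lacking Lcn2, the gene of the granule protein lipocalin 2: 3 unstimulated and 2 after fMLP. The labels do not say whether replicates were separate animals, so the p-values measure only the spread between these arrays, and they do not say whether unstimulated cells were also kept at 37 degrees.

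Formyl peptides bind G protein-coupled receptors on the neutrophil surface, which drive directed movement, release of granules and the oxidative burst. The same receptors activate MAP kinases and NF-kB, which act on transcription. Immediate early genes, whose transcription needs no new protein, are known to respond to such signals within minutes, and many of their products are transcription factors or brakes on the signal itself. The receptor genes Fpr1 and Fpr2 were not analysed here.

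The unstimulated arrays were not alike. Replicates 1 and 2 had a narrow spread of values, with interquartile ranges of 1.68 on the log2 scale, while replicate 3 and both fMLP arrays had ranges of 2.51 to 2.59. Across probe sets replicates 1 and 2 correlated at 0.776 to 0.794 with the other 3 arrays, which correlated at 0.980 to 0.994 among themselves. Differences are therefore given against replicate 3, and the direction against replicates 1 and 2 is given by the rank of a gene within its array. Sex-linked genes went against the labels. Xist, the RNA of the silenced X chromosome in female cells, stood at 7.73, 7.81 and 6.88 on unstimulated replicates 1, 2 and 3 and at 11.12 and 11.04 on the fMLP arrays. The Y-linked gene Eif2s3y was at 6.91, 7.22 and 9.83 without and at 5.44 and 5.41 with fMLP. Xist was thus low on all 3 unstimulated arrays and the Y-linked signal was high on replicate 3, so the source of the cells and the stimulation cannot be told apart in any difference below. Lcn2 was at 13.88 to 14.02 without and 14.13 to 14.16 with fMLP, and at 8.09 to 9.60 on the 5 knockout arrays.

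The preparations carried neutrophil genes at the top of the signal range on every array. The 14 neutrophil defining genes with a probe set (S100a8, Ly6g, Camp, Ltf, Cxcr2 and others) had a mean log2 signal of 12.60, 12.73 and 13.54 on unstimulated replicates 1, 2 and 3 and of 13.49 and 13.54 after fMLP. Their median rank was at the percentile 99.74 or above on each of the 5 arrays. None of the 14 was called different from replicate 3, and their differences ran from -0.17 to 0.19.

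Against unstimulated replicate 3, 253 of 14070 tested genes were higher after fMLP and 99 were lower (limma, adjusted p below 0.05), which is 1.8% and 0.704% of the genes tested. Apart from the sex-linked genes, the higher genes were led by immediate early transcription factors, polo-like kinases and receptors of activated cells, and the lower genes by eosinophil granule proteins and monocyte genes. The log2 difference reached at least 1 for 81 of the higher genes and for 26 of the lower genes in size, and the median of all tested genes was -0.0066. Before adjustment 2490 genes had a p below 0.05, where 703.5 would be met by chance. For 14 of the 253 higher genes no unstimulated array of either genotype exceeded the filter value of 8.18 (the median of all values, which at least 2 of the 10 arrays had to pass for a gene to be tested), so they were tested only because of their fMLP arrays and their size is uncertain. Xist, Plk2, Rasgef1b, Zbtb10, Tnfaip6, Clec4n and Snord37 are among them. For 12 of the 99 lower genes no fMLP array of either genotype exceeded the filter value. These were tested only because of their unstimulated arrays, and their size is uncertain. Eif2s3y, Epx, Prg3, Ccr2, Cpa3 and Snora31 are among them. The single replicate 3 array was assumed to vary like the arrays that had a partner. When the 5 arrays were forced to the same distribution only Xist and Eif2s3y were called, and with all 10 arrays in the fit or all 3 unstimulated arrays as controls 0 genes were called, with 607 and 1175 at an unadjusted p below 0.05. Without unstimulated replicate 1 or 2 the counts were 990 and 534, and without replicate 3, with replicates 1 and 2 as the controls, 6735 and 5680.

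**Figure D1:**
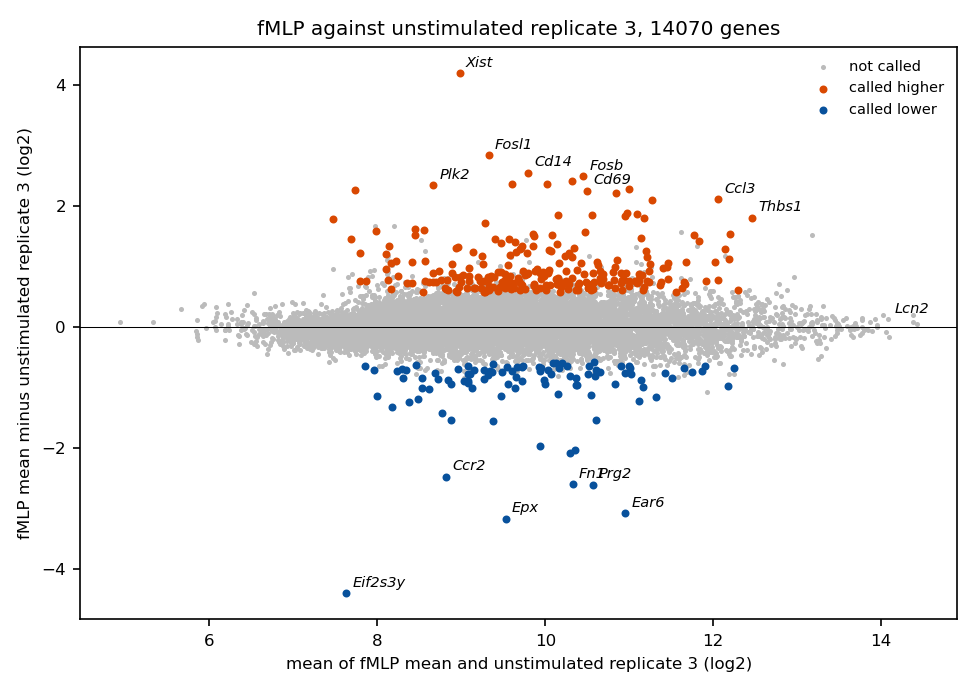
Difference between the mean of both fMLP arrays and unstimulated wild type replicate 3 (y axis, log2) against the mean of those 2 levels (x axis, log2) for 14070 tested genes, 1 point per gene. The 253 genes called higher and the 99 called lower stand out from the grey points, with Xist (4.20) and Eif2s3y (-4.40) farthest from 0.

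The AP-1 and ATF transcription factors, which bind DNA as pairs of leucine zipper proteins, were among the largest rises. Of 12 that passed the signal filter, 6 were called higher and 0 lower, with a median difference of 0.79, where 1.8% of all tested genes were called higher. Fosl1 stood at 8.53, 8.74 and 7.91 on the 3 unstimulated arrays and at 10.25 and 11.25 after fMLP, a 7.18-fold rise over replicate 3 (log2 2.84, SE 0.33, adjusted p = 0.00602). Fosb went from 9.53, 9.54 and 9.20 to 11.32 and 12.08 (log2 2.50, adjusted p = 0.00413). For both genes every fMLP array lay above every unstimulated array. Atf3, a stress-induced family member, read 8.92, 9.09 and 9.11 without and 11.01 and 12.04 with fMLP (log2 2.41, adjusted p = 0.0132). Jun (1.26), Mafk (0.86) and Jund made up the rest of the 6. The best known member, Fos, was at 9.21, 9.54 and 10.84 without and at 11.75 and 13.04 with fMLP. Its difference of 1.56 did not pass (SE 0.42, adjusted p = 0.0970), and neither did that of Junb at 0.70 (adjusted p = 0.0903).

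The EGR zinc finger factors and the NR4A orphan nuclear receptors had the highest median difference of the gene lists. All 9 passed the filter, 5 were called higher, against 1.8% of all tested genes, and the median difference was 1.22. Nr4a1 was at 9.52, 9.47 and 9.74 on the unstimulated arrays and at 11.56 and 12.33 after fMLP (log2 2.21, SE 0.26, adjusted p = 0.00626), and its relative Nr4a2 rose by 1.31. Egr2 was at 8.90, 8.90 and 8.42 without fMLP and at 10.13 and 11.44 with it (log2 2.36, SE 0.41, adjusted p = 0.0285). Egr1 rose by 2.35 from 8.85 on replicate 3 to 10.43 and 11.98. For both Egr genes fMLP replicate 2 was well above fMLP replicate 1, and Egr1 was called by a narrow margin (adjusted p = 0.0460, and 0.0585 with each array centred on its median). Egr3 rose by 1.22, but its rank after fMLP overlapped that on unstimulated replicates 1 and 2.

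Of 42 other immediate early genes that passed the filter, 13 were called higher and 0 lower, with a median of 0.41. Plk2, a polo-like kinase induced by stress, stood at 7.26, 7.49 and 7.49 without fMLP and at 9.69 and 10.00 with it. All its unstimulated levels lay below the filter value of 8.18. Against that value the rise was at least 3.17-fold, and the fitted log2 difference of 2.35 (adjusted p = 0.00106) rests on a control level too low to be exact. Its relative Plk3 rose by 2.09, from 10.23 on replicate 3 to 12.01 and 12.63. Rasgef1b, a Ras guanine exchange factor, was at 6.74, 6.91 and 6.60 without and 9.50 and 8.21 with fMLP, with the first fMLP array clearly the higher. It too lay below the filter value without fMLP, and against that value its mean after fMLP was at least 1.60-fold higher. The transcriptional repressor genes Tgif1 and Bhlhe40 rose by 1.72 and 1.30, Zbtb10 by 1.23 from below the filter value, and the kinase gene Pim1 by 1.05. Over the 3 immediate early lists together, 24 of the 63 genes that passed the filter, of 66 listed, were called higher, against the 1.8% of all tested genes, and 57 of 63 differences were above 0. Of the 24, 4 had no unstimulated array above the filter value, and among genes that had one the count was 20 of 58. Of the 24 called, 21 were higher on fMLP replicate 2 than on fMLP replicate 1, with a median log2 gap of 0.43. Of all 14070 tested genes 7468 were, with a median gap of 0.01.

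Promoter sequences were searched on both strands for 4 motifs, in windows of 250 bases before to 50 after RefSeq starts (GRCm38.p6). The cAMP response element TGACGTCA was present in 3.92% of 255 promoters of the higher genes, in 5.38% of 93 promoters of the lower genes and in 2.63% of 13954 promoters of all tested genes. The AP-1 site TGANTCA was in 5.49%, 14.0% and 6.01% of them. The CArG box, which serum response factor binds, was in 2.75%, 1.08% and 1.33%. The first of these is 7 promoters of 4 genes, of which 4 are windows of Egr2, and by gene the shares were 2.08% of 192 higher genes and 1.57% of all 11148. A loose NF-kB pattern, GGG and CC with any 5 bases between them, was in 70.2%, 57.0% and 64.5%. Of the 24 immediate early genes called higher, 17 had a promoter in the table. Among these Plk2 alone held TGACGTCA, Csrnp1 alone held TGANTCA and Egr2 alone held a CArG box. A window of Egr2, 1 of its 4 with a match, and that of Plk2 are shown because these genes led their lists and hold a match, which is in capitals. The Egr2 window is chr10:67537619-67537918 on the + strand, with the CArG box beginning 72 bases before the start. The Plk2 window is chr13:110394794-110395093 on the + strand, with TGACGTCA beginning 62 bases before the start.
Egr2: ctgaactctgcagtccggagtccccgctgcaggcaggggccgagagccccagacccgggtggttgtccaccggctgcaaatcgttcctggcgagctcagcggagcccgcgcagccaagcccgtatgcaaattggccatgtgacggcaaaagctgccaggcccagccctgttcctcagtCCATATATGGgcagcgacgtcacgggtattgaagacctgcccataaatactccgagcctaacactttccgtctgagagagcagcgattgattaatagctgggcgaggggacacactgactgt
Plk2: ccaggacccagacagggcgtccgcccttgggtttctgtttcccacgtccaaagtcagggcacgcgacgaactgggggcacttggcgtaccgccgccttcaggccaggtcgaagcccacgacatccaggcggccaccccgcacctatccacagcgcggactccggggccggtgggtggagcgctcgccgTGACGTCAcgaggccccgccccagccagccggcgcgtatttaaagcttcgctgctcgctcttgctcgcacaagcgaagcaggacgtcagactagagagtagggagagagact
A match is a description of letters and not a site of binding.

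**Figure D2:**
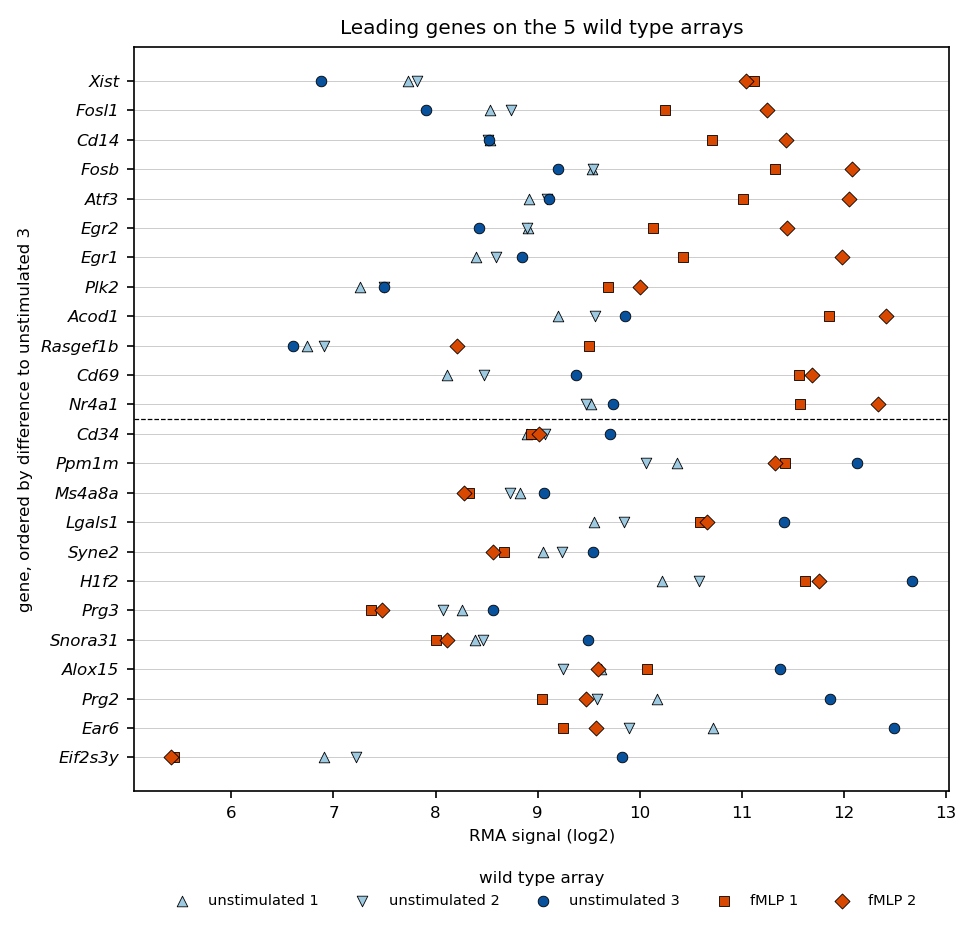
RMA signal (x axis, log2) of the 12 leading higher and 12 leading lower genes on the 5 wild type arrays, 1 symbol per array, with the dashed line between the directions. Genes were drawn only if called and if their rank moved the same way against replicates 1 and 2. Epx, Fn1 and Ccr2 did not meet that rule. For the 12 upper genes both fMLP arrays lie above all 3 unstimulated arrays, which follows largely from that choice. For lower genes such as H1f2 the fMLP arrays lie between replicate 3 and replicates 1 and 2.

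Brakes on MAP kinase signalling moved less uniformly. Of 16 phosphatase and Sprouty genes, 2 were called higher, against 1.8% of all tested genes, and the median was 0.39. Dusp5, which acts on ERK in the nucleus, was at 9.08, 9.07 and 9.22 without and 10.73 and 11.41 with fMLP (log2 1.85, SE 0.24, adjusted p = 0.00979). Dusp10, which acts on p38 and JNK, rose by 1.04. Dusp1 was already at 12.41 on replicate 3 and stood at 13.65 and 14.21 after fMLP, a difference of 1.52 that just missed the threshold (adjusted p = 0.0505). Among 9 regulators of mRNA decay only Zfp36l1, which binds AU-rich elements, was called (1.25, adjusted p = 0.00334).

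A few genes of the NF-kB system and chemokines rose, while most cytokine genes did not pass. Of 15 NF-kB subunit and inhibitor family genes, 4 were called higher, against 1.8% of all tested genes, with a median of 0.34. Tnfaip3, the ubiquitin-editing inhibitor A20, was at 9.09, 9.0 and 9.08 on the unstimulated arrays and 10.60 and 10.65 after fMLP (log2 1.54, SE 0.12, adjusted p = 0.00151). Nfkbid and Nfkbiz, genes of nuclear IkB family proteins, rose by 1.84 and 0.93, and the subunit gene Nfkb2 by 0.81. The rank of Nfkbiz overlapped that on replicates 1 and 2, and its call (adjusted p = 0.0495) was lost with each array centred on its median (0.0585) and with no filter (0.0615). Of 36 cytokine and chemokine genes listed 25 passed the filter, of which 4 were called higher and Ccl9 (-1.01, and 0.24 against replicates 1 and 2, where its rank overlapped) lower, with a median of -0.02. Ccl3, a chemokine for monocytes and other leukocytes, was bright already without fMLP, at 11.04, 11.74 and 11, and reached 12.89 and 13.34 (log2 2.11, SE 0.28, adjusted p = 0.0117). Cxcl2, a chemokine for neutrophils, was at 8.92, 9.50 and 10.15 without and 11.55 and 12.50 with fMLP (log2 1.87, adjusted p = 0.0356). Ccl4 rose by 1.09 and Ccl5 by 1.15, although the rank of Ccl5 was lower after fMLP than on replicates 1 and 2. Il1b differed by 0.83 (adjusted p = 0.162) and Tnf by 0.48 (adjusted p = 0.185).

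Some receptors and enzymes of activated myeloid cells rose. Of 32 such genes that passed the filter, 10 were called higher and 0 lower, with a median of 0.44, where 1.8% of all tested genes were called higher. Cd14, the co-receptor for bacterial lipopolysaccharide, was at 8.53, 8.51 and 8.52 on the unstimulated arrays and 10.71 and 11.44 after fMLP, a 5.86-fold rise (log2 2.55, SE 0.25, adjusted p = 0.00334). The 3 unstimulated arrays differed little for this gene, and the fMLP arrays lay far above them. Cd69, an early activation marker of leukocytes, was at 8.11, 8.48 and 9.37 without and at 11.56 and 11.69 with fMLP (log2 2.25, adjusted p = 0.00106). Acod1, the enzyme that makes itaconate, rose by 2.28 (SE 0.23, adjusted p = 0.00413), from 9.85 on replicate 3 to 11.85 and 12.41. The hydroxycarboxylic acid receptor gene Hcar2 rose by 1.88, the matrix protein gene Thbs1 by 1.80, Cd83 by 1.60, the hyaluronan-binding gene Tnfaip6 by 1.58 and the amplifying receptor gene Trem1 by 1.53. The calls of Tnfaip6 and Trem1 were lost with each array centred on its median (adjusted p = 0.0530 and 0.0634) and with no filter (0.0553 and 0.0602). Tnfaip6, counted in the 10, also lay below the filter value on every unstimulated array, so it was tested only because of its fMLP arrays. Among 30 pattern recognition genes, Tlr2 (0.78) was called higher beside Cd14, and Ly96 (-1.16) and Tlr8 (-0.85) were called lower than replicate 3. Against replicates 1 and 2 these differences turned to 2.12 and 1.85. The call of Tlr2 was lost under median centring (adjusted p = 0.0522) and with no filter (0.0610).

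Stress and clock genes contributed smaller rises, to be set against the 1.8% of all tested genes called higher. Of 27 genes of the endoplasmic reticulum and amino acid stress response, 4 were called higher, with a median of 0.20. They were Ppp1r15a (1.45, adjusted p = 0.00413), which restores translation after stress, Slc3a2 (1.06) of the amino acid transporter, the asparagine synthetase gene Asns (0.89) and Ddit3 (0.75). Of 17 clock genes 4 were called higher. Per1, also known as an immediate early gene, was at 9.26, 9.37 and 9.70 without and at 11.13 and 11.38 with fMLP (log2 1.56, SE 0.14, adjusted p = 0.00309). Ciart (1.34), Bhlhe40 and Nr1d2 (0.63) were the others. Of 21 antioxidant genes Mt2 (1.53), Osgin1 (0.72) and Mt1 (0.65) were called, and the rank of Mt2 was lower after fMLP than on replicates 1 and 2. Of 16 heat shock genes Chordc1 (0.74) and Dnajb1 (0.60) were called.

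In each of the lists of neutrophil functions that follow at most 3 genes were called. In short lists even so few calls exceed the 2.5% of all tested genes called in either direction. The highest shares were 3 of 18 chemoattractant receptor genes and 3 of 17 tertiary granule and secretory vesicle genes. None of 46 genes of chemoattractant signalling and actin control was called, and their differences ran from -0.59 to 0.55 with a median of -0.03. Of 18 chemoattractant receptor genes, S1pr1 was called higher (1.39), while Ccr2 (-2.48) and Ccr3 (-1.02), receptors of monocytes and of eosinophils, were lower than on replicate 3. Of 23 secondary granule genes only Orm1 was called higher (0.75), and the median was 0.04. Of 13 primary granule genes, Ctsg, which encodes cathepsin G, was called lower (-1.22, adjusted p = 0.0208), and the median was -0.52. Of 17 tertiary granule and secretory vesicle genes Cd14, Qsox1 (0.70) and Tnfaip6 were called higher. The proton channel gene Hvcn1 was the 1 called of 10 NADPH oxidase genes (0.71), and Itgax the 1 called of 27 adhesion genes (-0.66). Both calls were lost under median centring (adjusted p = 0.0522 for Hvcn1 and 0.0516 for Itgax) and with no filter (0.0586 and 0.0551). In apoptosis the death receptor gene Fas was called (-0.78), in the cytokine receptor list Il10ra (0.93) and Pim1, among S100 genes S100a6 (-0.67), in respiration Uqcrb (-0.73), and in the interferon list Irf7 (0.72) and Oasl1 (0.60). With no filter the calls of Irf7 and Oasl1 were lost (adjusted p = 0.0561 and 0.0553), and Oasl1 ranked lower after fMLP than on replicates 1 and 2. No gene was called among 20 glycolysis, 20 iron handling or 49 proliferation genes, whose medians were 0.18, -0.01 and -0.13. By rank against replicates 1 and 2, Ctsg, Fas, Itgax, Ccr3 and Ccr2 were higher after fMLP, Uqcrb overlapped and S100a6 was lower. The log2 differences to those replicates, whose spread is narrower, were 1.37 for Ctsg, 0.59 for Fas, 0.30 for Itgax, 0.20 for Ccr3, 0.17 for Ccr2, 1.51 for Uqcrb and 1.32 for S100a6.

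**Figure D3:**
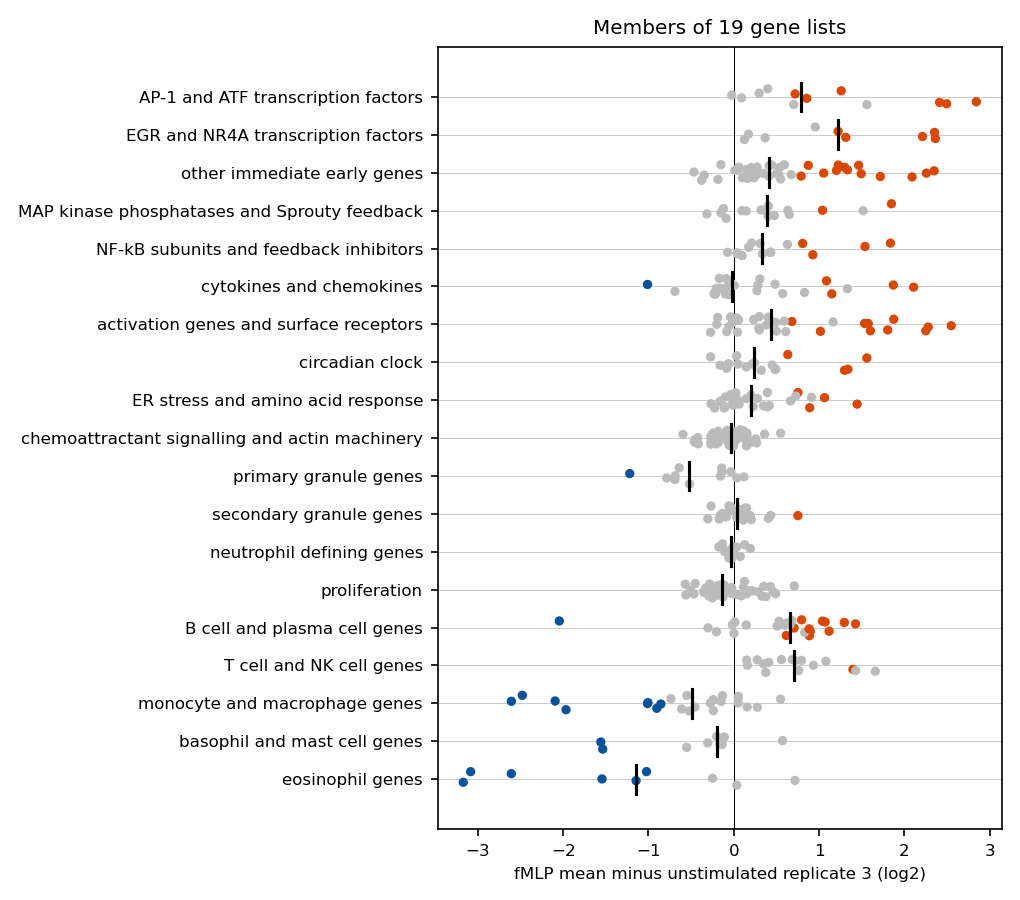
Difference between the fMLP mean and unstimulated wild type replicate 3 (x axis, log2) for the tested members of 19 gene lists, 1 point per gene, orange for called higher, blue for called lower, grey for not called, with the list median as a black bar. Immediate early and activation lists reach to the right, and eosinophil, basophil and monocyte lists to the left.

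Most tested eosinophil genes were lower after fMLP than on replicate 3. Of 14 listed, 11 had a probe set and 9 passed the filter, of which 6 were called lower and 0 higher, against 0.704% of all genes, with a median of -1.14. Of the 9 differences 2 were above 0, the highest at 0.72. The mean log2 signal of the 11 was 9.01, 8.77 and 9.87 on the unstimulated arrays and 8.74 and 8.73 after fMLP. Epx, eosinophil peroxidase, stood at 8.68, 8.23 and 11.11 on unstimulated replicates 1, 2 and 3 and at 7.80 and 8.08 after fMLP (log2 -3.17, SE 0.20, adjusted p = 0.000686). Its high level was on replicate 3 alone, and its rank after fMLP overlapped that on replicates 1 and 2. The 6 called include Epx and Prg3, which lay below the filter value of 8.18 on every fMLP array of either genotype. Both were tested only because of their unstimulated arrays, and the size of these 2 differences is uncertain. Ear6, an eosinophil ribonuclease, was at 10.72, 9.89 and 12.49 without and 9.24 and 9.57 with fMLP (log2 -3.08, adjusted p = 0.00331). Prg2, the major basic protein, was at 10.17, 9.58 and 11.87 without and 9.04 and 9.48 with fMLP (log2 -2.61, adjusted p = 0.00334). Ear6, Prg2, Prg3 (-1.14) and the lipoxygenase gene Alox15 (-1.54) also had lower ranks after fMLP than on replicates 1 and 2. Ccr3 (-1.02), also among the called, had higher ranks after fMLP than on those replicates. Of the 9 tested, 6 ranked lower and 1 higher by this rule, where 48% and 41.5% of all tested genes did. On the log2 scale the fMLP mean of Alox15, 9.83, was above its 9.62 and 9.25 on those replicates. In bulk RNA, fewer cells of a type and less RNA per cell cannot be told apart.

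Monocyte genes were high on replicate 3. Of 32 listed, 24 passed the filter, of which 8 were called lower than replicate 3, against 0.704% of all tested genes. The median of the 24 was -0.49, and 6 of their differences were above 0. Against replicates 1 and 2, 13 of the 24 ranked higher and 5 lower, where 41.5% and 48% of all tested genes did. Ccr2 was at 7.27, 7.54 and 10.06 on the unstimulated arrays and at 7.42 and 7.74 after fMLP. Its levels after fMLP lay below the filter value of 8.18, also on the knockout arrays. Ccr2, counted in the 8, was thus tested only because of its unstimulated arrays. Fn1, fibronectin, was at 8.94, 8.76 and 11.63 without and 8.63 and 9.41 with fMLP, and F13a1 and Ms4a6c differed by -1.97 and -2.09. The rank of Ccr2 went from the percentile 76.7 on replicate 3 to 7.34 and 14.3, which is above its 1.38 and 2.47 on replicates 1 and 2, and the ranks of Fn1 and F13a1 overlapped with those replicates. Without replicate 3, with replicates 1 and 2 as controls, the differences were 0.17 for Ccr2, 0.18 for Fn1, 0.045 for F13a1 and 1.80 for Ms4a6c. The mean log2 signal of the 29 genes with a probe set was 8.58, 8.56 and 9.65 on the unstimulated arrays and 9.02 and 9.09 after fMLP. Mcpt8 (-1.56) and Cpa3 (-1.54), proteases of basophils and mast cells, were the 2 called of 9, and neither ranked lower than on replicates 1 and 2, against which they differed by 0.43 and 0.49. Cpa3 lay below the filter value on every fMLP array of either genotype. It was thus tested only because of its unstimulated arrays, and its size is uncertain.

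Part of the B cell genes rose after fMLP. Of 30 B cell and plasma cell genes listed 25 passed the filter, of which 11 were called higher and 1 lower, with a median of 0.66. Of all tested genes 1.8% were called higher and 0.704% lower. Against replicates 1 and 2, 15 of the 25 ranked higher and 8 lower, where 41.5% and 48% of all tested genes did. Cd79b and Cd79a, which encode the signalling chains of the B cell receptor, were at 11.63 and 11.14 on replicate 3, at 12.72 and 12.21 on fMLP replicate 1 and at 12.78 and 12.21 on fMLP replicate 2. The B cell surface gene Ms4a1 rose by 0.88 and Cd74, the invariant chain of MHC class II, by 1.43. The plasma cell gene Jchain was the lower member (-2.04, and 1.22 against replicates 1 and 2). Of 32 T and NK cell genes listed 16 passed the filter, and all 16 had differences above 0 (median 0.70), but only Cd2 was called (1.40, adjusted p = 0.00583). Against replicates 1 and 2, 7 of the 16 ranked higher and 5 lower, a share of higher ranks near the 41.5% of all tested genes. The mean log2 signal of the 28 B cell genes with a probe set was 9.07, 9.07 and 9.69 without and 10.14 and 10.19 with fMLP. That of 26 T and NK cell genes was 8.20, 8.10 and 7.84 without and 8.63 and 8.34 with fMLP. Cd69, Cd83, Ccl5 and Irf4 (1.34) are known in lymphocytes too, and the part of these cells in the rises given above was not tested. Of the 11 B cell genes called higher, 4 were higher on fMLP replicate 2 than on fMLP replicate 1, where 7468 of all 14070 tested genes were. Of the remaining lists of other cell types, 20 dendritic cell and MHC class II genes had 2 called higher (Irf4, Cd74) and 1 lower (Itgax), 11 megakaryocyte genes had Thbs1 and 16 progenitor genes had Cd34. No gene was called among 18 erythroid, 14 stromal or 16 neuron genes. Of 13 genes of prostaglandin and leukotriene synthesis only Alox15 was called.

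Ranks within the arrays set the called genes against unstimulated replicates 1 and 2. Of the 253 higher genes, 223 had a higher rank on both fMLP arrays than on both of these replicates, 16 a lower one and 14 overlapped. Among all tested genes 41.5% ranked higher and 48% lower by the same rule, which shows how far these 2 replicates lie from the fMLP arrays in general. Of the 99 genes lower than replicate 3, only 20 also ranked lower against replicates 1 and 2, while 70 ranked higher. Plk2, below the filter value without fMLP, moved from the percentile 1.33 and 2.07 on replicates 1 and 2 and 7.25 on replicate 3 to 68.2 and 74.7. Cd14 moved from 35.1, 36.6 and 39.7 to 86.0 and 93.4. Ear6 moved the other way, from 97.9, 92.1 and 98.6 to 58.5 and 66.1. Other genes that were lower by both measures were S100a6, the small nucleolar RNA gene Snora31 (-1.43), the linker histone gene H1f2 (-0.98), Syne2 (-0.92) of the nuclear envelope, the galectin gene Lgals1 (-0.78), Ms4a8a (-0.76), Ppm1m (-0.75) and the progenitor marker Cd34 (-0.73). On the log2 scale H1f2 (1.28), S100a6 (1.32), Ppm1m (1.16), Lgals1 (0.93) and Alox15 (0.40) were above replicates 1 and 2 although their ranks were lower.

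**Figure D4:**
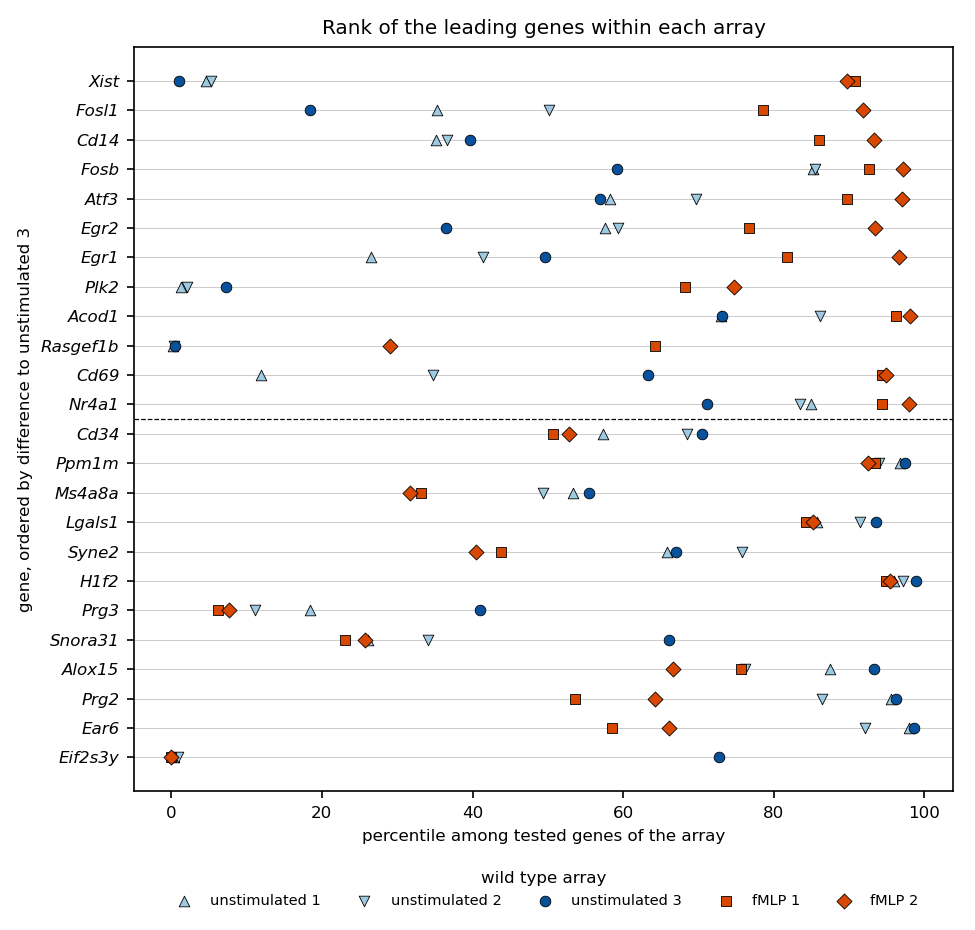
Percentile among the 14070 tested genes (x axis) of the 12 leading higher and 12 leading lower genes on each of the 5 wild type arrays, 1 symbol per array. Cd14 and Plk2 shift to high percentiles on both fMLP arrays against all 3 unstimulated arrays, and Ear6 shifts down.

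The knockout arrays, which have their own unstimulated replicate 3, gave a reading of the same genes. On fMLP knockout replicate 1, 252 of the 253 higher genes were above unstimulated knockout replicate 3 and 98 of the 99 lower genes were below it, where 46.8% and 53.2% of all tested genes were. Fewer genes moved this way on both knockout arrays. With fMLP knockout replicate 2, an array with high signals of neuron genes (median difference 3.07 over 16 such genes), 163 of 253 were higher and 92 of 99 lower on both knockout arrays, against 22.4% and 36.9% of all genes. Plk2 differed by 2.34 and 2.72 on the knockout arrays, Atf3 by 2.51 and 1.94 and Epx by -3.17 and -3.72. Xist differed there too, by 4.03 and 2.89, and Eif2s3y by -4.23 and -3.11. No gene passed a test of the difference between the wild type and knockout responses (limma on 10 arrays, 0 of 14070, with 13 at an unadjusted p below 0.05). Chance would give 703.5, and the same fit called 0 genes for the wild type difference itself, so this count does not show that the responses were alike. Without fMLP knockout replicate 2, where the fit called 144 higher and 57 lower genes in wild type, the count was again 0, with 49 at an unadjusted p below 0.05. Egr1 differed by 2.35 in wild type and by 1.03 and 1.39 in knockout cells, and Tnfaip6 by 1.58 in wild type and by -0.08 and 0.64 in knockout cells, neither of which passed that test.

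**Figure D5:**
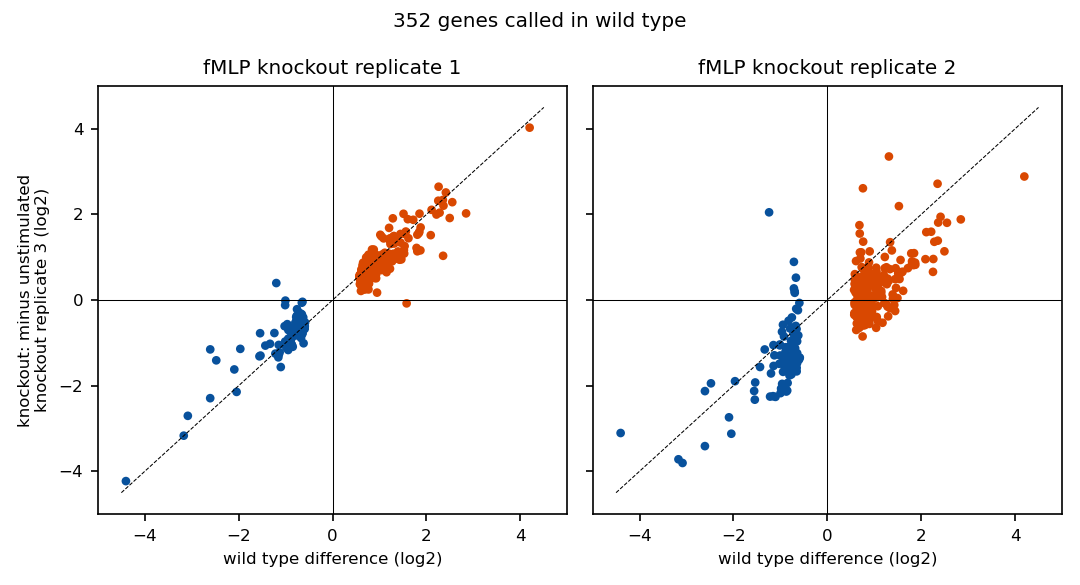
The 352 genes called in wild type cells, with the wild type difference to unstimulated replicate 3 (x axis, log2) against the difference of each fMLP knockout array to unstimulated knockout replicate 3 (y axis, log2), orange for called higher and blue for called lower. The dashed line marks equal values. On the left panel 252 of 253 orange points lie above 0, and on the right panel 89 of 253 lie below 0.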

How the data were processed

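Gene expression was measured on Affymetrix mouse arrays. The authors deposited log2 values summarised by RMA in Affymetrix Expression Console, per the submitters' processing notes. That these are log2 was read from their size, as no source used here gives the base. RMA corrects background, gives jointly handled arrays a common distribution and combines the probes of a set. No source used here tells whether the arrays went through RMA jointly, and their unequal spread bears on every difference. Of 35556 probe sets, the array annotation pairs 21789 with a single gene, 1621 with several and 12146 with none. Each of 19938 genes was read from its brightest single-gene probe set, by the mean of the 10 arrays. A gene was tested if at least 2 of the 10 arrays exceeded 8.18, the overall median, which left 14070 genes.

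The 5 wild type arrays were fitted with limma 3.58.1 (R 4.3.3). Unstimulated replicates 1 and 2 shared a coefficient, while replicate 3 and the fMLP arrays had one each, which leaves 2 residual degrees of freedom. The contrast was fMLP minus replicate 3, two-sided, with Benjamini-Hochberg adjustment over all tested genes and calls below 0.05. SE is the moderated standard error. On simulated data the fit recovered 59 of 100 changes of log2 size 1 and 89 of 100 of size 2, and called 6 unchanged genes. Each gene was simulated with the same spread on all arrays, so this does not test the assumption about replicate 3. Array number limits the precision, and an exact permutation test of these few arrays could not pass 0.05. The difference between genotypes was tested on all 10 arrays with coefficients of the same kind.

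Genes named were the 12 largest called differences in each direction whose rank also moved that way against replicates 1 and 2 (no predicted genes), up to 4 members per list with the smallest p, Lcn2, Xist and Eif2s3y. Fos, Junb, Jun, Dusp1, Plk3, Cxcl2, Hcar2, Cd83, Trem1, Il1b, Tnf, Jchain, Ms4a6c, Jund, Csrnp1, and the genes under the other observations, were named after their values were seen. Members and lists were chosen with earlier results of these data known. The 42 gene lists cover signalling, effector functions, stress and other cell types. A list was described by its counts and its median, with no test of the list. Alternatives changed the normalization, the filter, the probe set choice, the variance model, the controls, the arrays in the fit and the replicate block.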

Additional observations from a re-analysis of the deposited data

How the results depend on the processing

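The difference to unstimulated replicate 3 rests on 1 control array, and its calls depend on how the spread is estimated and on which unstimulated arrays serve as controls. Counts of genes called higher and lower (253 and 99) stayed within 1.5 times under median centring, other filters, probe set means, robust moderation and without either fMLP array. Without the genes of the X and Y chromosomes they were 254 and 93. They were 1 and 1 after quantile normalization of the 5 arrays (939 genes at an unadjusted p below 0.05), 0 and 0 with all 10 arrays in the fit, 144 and 57 with 9 arrays (without fMLP knockout replicate 2), 990 and 534 with only the 3 arrays compared or without unstimulated replicate 1 or 2, and 20 and 10 with a size threshold of 0.5. With all 3 unstimulated arrays as controls they were 0 and 0, also after quantile normalization (567 at an unadjusted p below 0.05). Leaving out 1 array gave 293 to 6735 higher and 95 to 5680 lower, the upper ends without replicate 3, whose place replicates 1 and 2 then took. With quantile normalization and replicates 1 and 2 as controls, chosen after seeing the data, the counts were 5006 and 5702. For the 2 shared replicate numbers the correlation of deviations was -0.036. With 2 pairs, whose unstimulated members have the narrow spread, this cannot decide whether the numbers marked pairs. With the replicate block 514 and 226 genes were called. The cause of these shifts was not tested.

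Of the genes named, these turned direction with all 3 unstimulated arrays as controls: H1f2 (0.53), Lgals1 (0.36), Ppm1m (0.52), Tlr8 (0.95), Ly96 (1.03), Ctsg (0.50), S100a6 (0.65), Fas (0.13), Uqcrb (0.76), Jchain (0.13) and Ms4a6c (0.50). After quantile normalization with the same controls they were Ccr3 (0.12), Itgax (0.064), Tlr8 (0.94), Ly96 (0.75), Ctsg (0.0031), Oasl1 (-0.31), Mt2 (-0.10), Fas (0.32), Cpa3 (0.21), Mcpt8 (0.018), Lcn2 (-0.020), Jchain (0.31) and Ms4a6c (0.80). After quantile normalization against replicates 1 and 2 they were Egr3 (-0.023), Ccl5 (-0.38), Ccr2 (0.76), Ccr3 (0.60), Itgax (0.38), Tlr8 (1.77), Ly96 (1.63), Ctsg (0.54), Oasl1 (-0.67), Mt2 (-0.72), Mt1 (-0.070), Fas (0.81), Uqcrb (0.049), Cpa3 (0.95), Mcpt8 (0.65), Lcn2 (-0.061), Jchain (1.30) and Ms4a6c (2.05). Leaving out 1 array at a time, the range crossed 0 for Alox15 (-1.79 to 0.40), H1f2 (-1.05 to 1.28), Lgals1 (-0.82 to 0.93), Ppm1m (-0.80 to 1.16), Ccl9 (-1.03 to 0.24), Ccr2 (-2.64 to 0.17), Ccr3 (-1.13 to 0.20), Itgax (-0.74 to 0.30), Tlr8 (-0.91 to 1.85), Ly96 (-1.36 to 2.12), Ctsg (-1.47 to 1.37), S100a6 (-0.69 to 1.32), Fas (-0.85 to 0.59), Uqcrb (-0.80 to 1.51), Cpa3 (-1.59 to 0.49), Mcpt8 (-1.66 to 0.43), Fn1 (-3.00 to 0.18), F13a1 (-2.19 to 0.045), Jchain (-2.68 to 1.22) and Ms4a6c (-2.41 to 1.80), in each case at the upper end without replicate 3. The count of called genes with the same rank direction, 243, was 246 to 251 without any 1 of the other 4 arrays. With an array left out the rank rule is easier to meet for the same called genes, so this count could not fall. Beside the calls given above as lost, median centring ended those of Lgals1, Ppm1m and Jchain (adjusted p = 0.0501, 0.0522 and 0.0522), and no filter ended those of Ppm1m, Mt1 and Dnajb1 (0.0561, 0.0567 and 0.0556). The genotype difference had 0 calls in each of its alternatives.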

Other observations

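Of the 253 genes higher than unstimulated replicate 3, 78 belonged to a gene list. Among the others, picked here after their values were seen, was Ets2, a transcription factor gene downstream of MAP kinases, at 8.55, 9.32 and 10.28 on the unstimulated arrays and 11.83 and 12.34 after fMLP (log2 1.81, SE 0.30, adjusted p = 0.0249). Ccr7, the receptor that guides leukocytes to lymph nodes, was at 9.97, 9.95 and 9.63 without and 11.77 and 11.19 with fMLP (log2 1.85, adjusted p = 0.00580), and its rank overlapped that on replicates 1 and 2. The small nucleolar RNA gene Snord37 was at 6.57 on replicate 3 and at 8.27 and 8.45 after fMLP. It lay below the filter value of 8.18 on every unstimulated array, and no fold is given. Clec4n, the receptor Dectin-2, which also lay below it, rose by 1.51, the protease gene Ctsl by 1.38 and Insig1, a brake on sterol synthesis, by 1.27. Of the 99 lower genes, 26 belonged to a list, and 19 of those to a list of another cell type.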
